A study of Mus musculus with 8 samples.

Results

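Skeletal muscle contraction and calcium handling were followed through 38 genes that encode the proteins of the sarcomere, the calcium store of the muscle fibre and its energy supply. A gene was measured where the array annotation gave a probe set that gene's symbol and no other, and where several did, the probe set with the highest mean over the 8 arrays was used. By this rule 37 of the 38 were measured, out of 18193 genes in all. Xirp2 had no such probe set and was not analysed here. The samples were frozen, powdered skin from the back of hairless mice (strain Hos:HR-1, female) aged 10 weeks at sampling. The collagen group ate AIN-93G, a purified rodent diet, to which 2.0 g of fish-scale collagen hydrolysate was added per 100 g, for 1 week. The control group ate AIN-93G alone over that week. Each diet had 8 mice, housed 4 to a cage, of which 4 arrays per diet were used here, and the labels do not say which mice and cages these were.

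In a skeletal muscle fibre a voltage sensor in the surface membrane opens a calcium release channel of the sarcoplasmic reticulum. The released calcium binds troponin on the thin filament, so that myosin can pull on actin, and a calcium pump then refills the store. Fast and slow fibres carry different isoforms of many of these proteins. Mouse dorsal skin lies on a thin sheet of skeletal muscle, the panniculus carnosus, which consists mostly of fast fibres, and a piece of whole skin can carry more or less of it. In such bulk samples fewer muscle fibres and less RNA per fibre cannot be told apart.

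The promoters of 4 of these genes, taken in a fixed order, are shown as examples. Acta1 (skeletal muscle alpha-actin) stands for the thin filament and Ckm (muscle creatine kinase) for the energy supply. Mylpf (the regulatory light chain of fast myosin) stands for the thick filament and Atp2a1 for the calcium pump. Each promoter runs 5′ to 3′ over the 250 bases before and the 50 bases after the gene's start, from RefSeq in build GRCm38.p6.
Acta1, chr8:123894726-123895025, minus strand: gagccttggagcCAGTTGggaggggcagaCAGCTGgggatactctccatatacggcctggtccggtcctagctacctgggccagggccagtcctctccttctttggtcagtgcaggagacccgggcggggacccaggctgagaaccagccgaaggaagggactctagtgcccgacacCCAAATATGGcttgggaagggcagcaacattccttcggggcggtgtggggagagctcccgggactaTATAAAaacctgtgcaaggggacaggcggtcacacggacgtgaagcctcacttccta
Ckm, chr7:19410844-19411143, plus strand: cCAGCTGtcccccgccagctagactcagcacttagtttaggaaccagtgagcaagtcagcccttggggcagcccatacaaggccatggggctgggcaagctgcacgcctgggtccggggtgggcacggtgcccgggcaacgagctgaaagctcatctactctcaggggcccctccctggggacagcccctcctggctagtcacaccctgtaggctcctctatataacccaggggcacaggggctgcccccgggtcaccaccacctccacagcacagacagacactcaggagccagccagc
Mylpf, chr7:127211358-127211657, plus strand: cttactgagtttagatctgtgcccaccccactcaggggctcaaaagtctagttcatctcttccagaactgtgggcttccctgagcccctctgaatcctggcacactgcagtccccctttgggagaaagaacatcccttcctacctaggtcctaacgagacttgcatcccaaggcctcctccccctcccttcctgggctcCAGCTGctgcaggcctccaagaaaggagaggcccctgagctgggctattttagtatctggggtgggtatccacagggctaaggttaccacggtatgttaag
Atp2a1, chr7:126463024-126463323, minus strand: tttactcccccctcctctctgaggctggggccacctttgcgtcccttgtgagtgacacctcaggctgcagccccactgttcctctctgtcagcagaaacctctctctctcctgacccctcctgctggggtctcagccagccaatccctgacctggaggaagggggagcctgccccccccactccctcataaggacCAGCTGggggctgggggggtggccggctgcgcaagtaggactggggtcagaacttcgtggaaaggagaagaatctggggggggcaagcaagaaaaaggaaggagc
Capitals mark the E-box letters CANNTG, the letters TATAAA, and matches to the serum response factor CArG box, searched on both strands. No match to the MEF2 consensus was found in these 4 windows. Every one of the 4 held the E-box CAGCTG, which lay at bases -221 to -216 from the start in Acta1, -249 to -244 in Ckm, -51 to -46 in Mylpf and -55 to -50 in Atp2a1. This spelling was singled out after the sequences were seen. The 26 members with an entry have 31 promoters in all, and CAGCTG was present in 15 of these 31, and in 16.3% of all 32851 promoters of the same length. The more general CANNTG, of which CAGCTG is one form, was present in 26 of the 31 and in 72.3% of all promoters. Acta1 was the member of the 4 with a CArG box, and that motif was found in 4 of the 31 and in 1.63% of all promoters. TATAAA was found in 4 of the 31 against 13.6% of all promoters, and the MEF2 consensus in 3 against 3.19%. These are matches of letters, and binding was not measured.

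The values are on a log2 scale that the authors made, and they differed very little between arrays. Between its lowest and its highest array a probe set typically moved by 7.36e-06 (the median), and 96.9% of probe sets moved by under 0.001. The member ranges lay between 1.57e-05 (Tnni1) and 0.0578 (Actn3), with a median of 0.00694. What the spread on this scale stands for in the skin is unknown, so no difference is given as a fold change. Each difference stands in deposited log2 units with its standard error and, to set genes beside each other, as a multiple of the SD within the diets. The array medians ran between 8.1929 and 8.1932. A pair of arrays stood at the ends for the muscle genes, collagen 1 at the low end and control 4 at the high end. The main counts, medians and list correlations are also given without them.

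The mean of 36 of the 37 genes reached 8.1932, the median over all probe sets, as did that of 63.7% of all genes, each taken at its brightest probe set. Among the members the brightest were Acta1 at 13.99, Tnnc2 at 13.68, Ckm at 13.22, Mylpf at 13.20 and Tnni2 at 13.02. The slow troponins lay at the dim end, with Tnnc1 at 8.27, Tnnt1 at 8.21 and Tnni1 at 8.08. Levels of different probe sets depend on their sequences as well as on the RNA, so this order is one of signal and not of amount.

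The main feature of these genes was that they went up and down together from one skin piece to the next. The pattern was described with z values, for which each gene's values were centred and divided by its SD over the 8 arrays. The mean z value of the 37 genes was -1.27, 0.18, 0.14 and -0.58 in collagen arrays 1 to 4, and -0.65, 0.72, 0.31 and 1.14 in control arrays 1 to 4. Collagen 1 was thus lowest and control 4 highest, while control 1 lay below 3 of the 4 collagen arrays. The diets overlapped. The mean over collagen arrays was -0.38 ± 0.686 and that over control arrays 0.38 ± 0.767 (SD, n = 4 each), a difference of -0.76, and 26.9% of the variation of this mean lay between the diets.

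**Figure D1:**
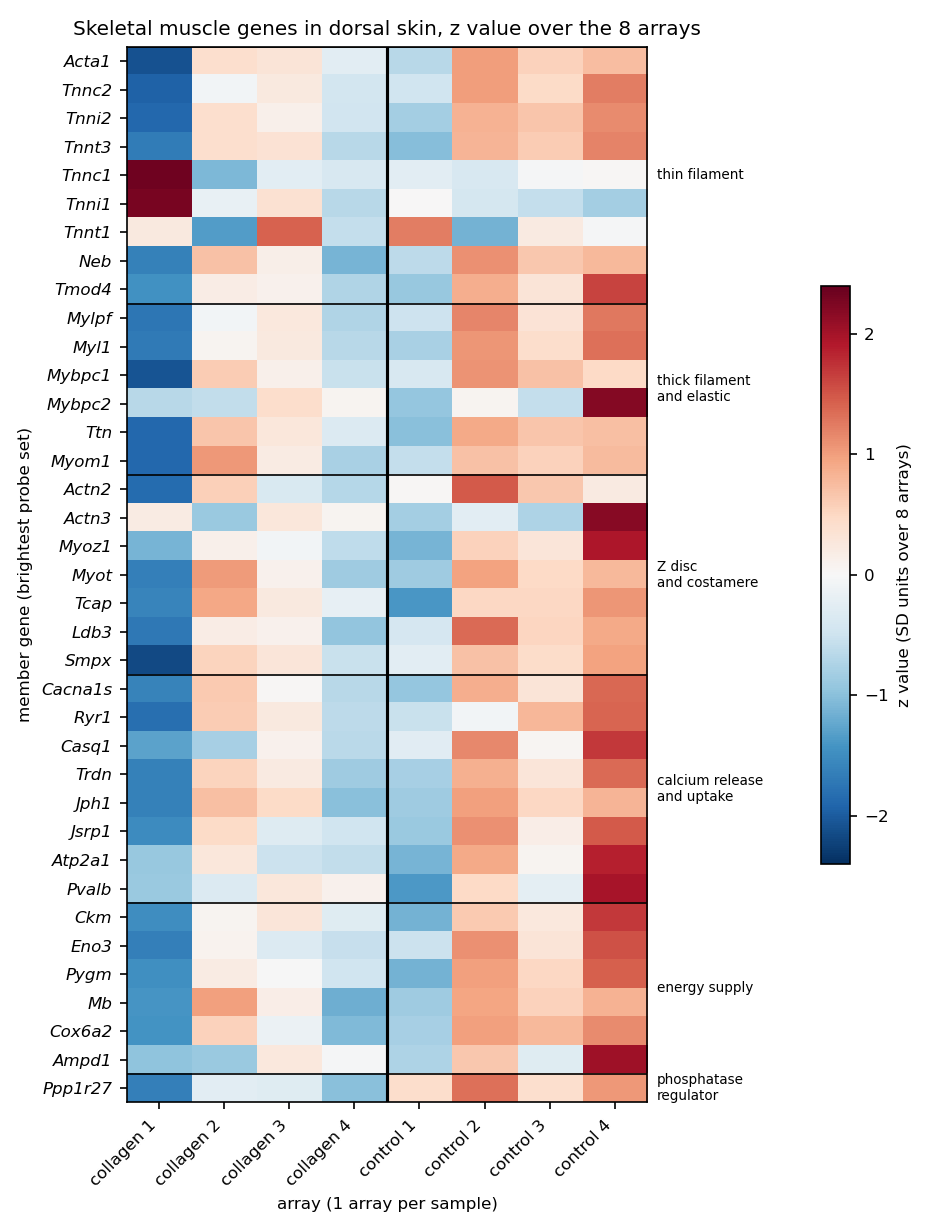
Z value of each of the 37 muscle genes (rows, grouped by role) in each of the 8 arrays (columns, collagen left and control right), with blue below and red above the gene's mean. Collagen 1 is blue and control 4 red in most rows, and the slow troponins Tnnc1 and Tnni1 run the other way in collagen 1.

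Each member's likeness to the rest was measured as the Pearson correlation, over the 8 arrays, of its values with the mean z value of all other members. The median was 0.918, with a Spearman rho of 0.929. It was 0.917 after each value was centred on its diet's mean, and 0.911 without collagen 1 and control 4. A correlation of 0.8 or more was found for 29 of the 37 members, against 3.39% of all genes, and of 0.9 or more for 22, against 1.12% of all genes. Tmod4, which caps the slow-growing end of the thin filament, and Myl1, the essential light chain of fast myosin, were the closest to the rest, at 0.994 each. The 3 slow troponins had negative correlations, at -0.725 for Tnni1, -0.579 for Tnnc1 and -0.32 for Tnnt1. Without collagen 1 and control 4 these were -0.0862 for Tnni1, -0.107 for Tnnc1 and -0.421 for Tnnt1. Among the other 34 members the values over the 8 arrays ran between 0.371 (Actn3) and 0.994. Of their 561 pairs 70.2% reached 0.8. All points share the same 8 RNA samples and arrays, and the correlations are descriptions.

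The same arrays came out at the ends gene after gene. Of the 34 members other than the slow troponins, 29 had their lowest value in collagen 1, which was the lowest array for 17.6% of all genes. Control 4 was the highest array for 23 of them, and for 12.5% of all genes. Control 2 was highest for 8 and collagen 2 for 3. Control 1 was the lowest control array for 33 of the 34, and collagen 4 the next lowest collagen array for 30. For these counts of control 2, collagen 2, control 1 and collagen 4 the share over all genes was not taken. The share of a member's variation that lay between diets had a median of 21.2%, with a range of 0.503% (Tnnt1) to 72.7% (Ppp1r27).

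Between the diets, 35 of the 37 members had a lower mean in collagen arrays than in control arrays, where 47.1% of all genes did, and none of these differences passed the test. At an adjusted p of 0.05 in limma over 18193 genes, 0 members were called, as were 0% of all genes, and the adjusted p was 0.999 for every member. The median difference was -0.861 within-group SD over the members and 0.0517 over all genes. At an unadjusted p under 0.05 there were 2 members, Ppp1r27 and Casq1, both lower with collagen, against 1.23% of all genes lower at that p and 2.26% higher. Every collagen array lay below every control array for 1 member, Ppp1r27, against 0.671% of all genes, and above every control array for 0 members, against 1.35% of all genes. Among genes at or above the median level, 35 of 36 members lay lower, where 47% of such genes did. The 2 members with a higher mean with collagen were the slow troponins Tnni1 and Tnnc1. Without collagen 1 and control 4, a choice made after the data were seen, 29 of the 37 were lower and the median was -0.221 within-group SD. Single arrays also moved the median, to -1.53 without control 1 (34 lower), -0.553 without control 4 (32 lower) and -0.603 without collagen 1 (35 lower). With a measure of RNA quality as a covariate (the difference between the 3′ and 5′ control probe sets of Gapdh), 29 were lower and the median was -0.381. With the arrays centred on their medians 33 were lower, while the share of all genes that lay lower was 5.38% and their median moved to 0.494. After quantile normalization 27 were lower, 2 were higher and 8 had no difference left, among them the 3 fast troponins, Acta1, Mylpf, Ckm and Eno3.

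**Figure D2:**
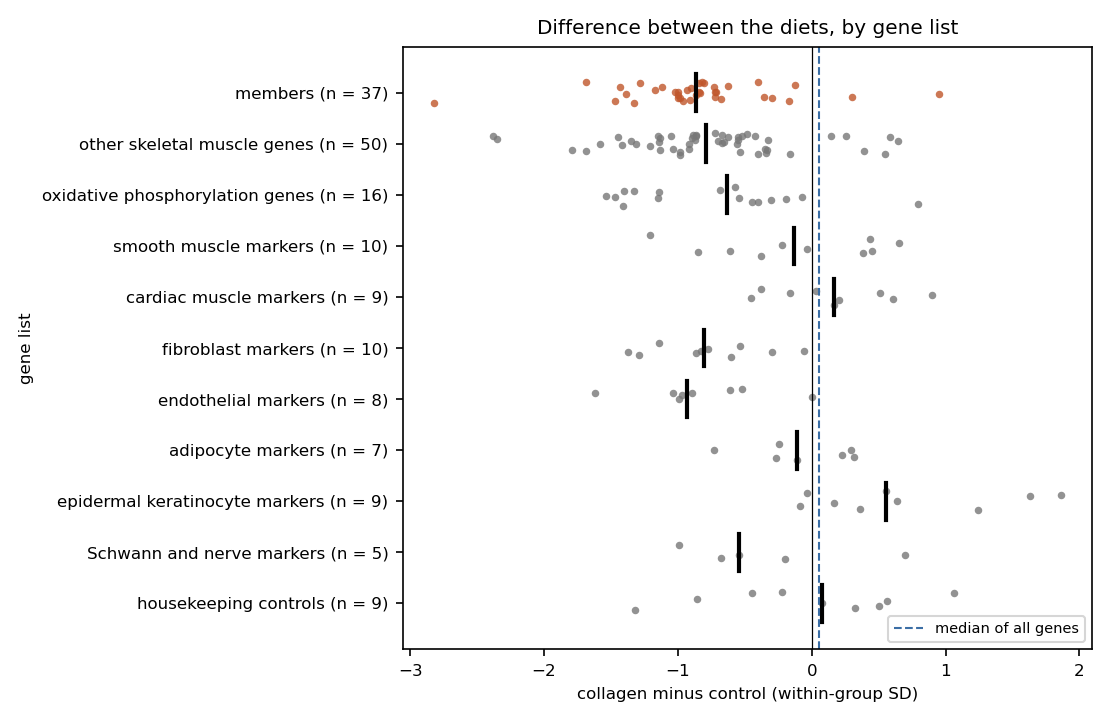
Difference between the diets (collagen minus control, in within-group SD) for each gene of the muscle list and of the other lists, 1 point per gene, with black bars at the list medians and a dashed line at the median of all genes. The muscle genes lie mostly left of 0, as do the other skeletal muscle, oxidative phosphorylation, fibroblast, endothelial, and Schwann cell and nerve genes.

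Of the 9 thin filament genes 7 had lower means with collagen and 2 higher ones, and none passed the test. Of the 9, 8 lay lower without collagen 1 and control 4. The 3 fast troponin subunits, which carry calcium sensitivity to the thin filament of fast fibres, were among the lower ones. Fast troponin C, Tnnc2, binds the calcium. Tnnc2 had 13.68286, 13.68296, 13.68298 and 13.68294 in collagen arrays 1 to 4, and 13.68294, 13.68302, 13.68299 and 13.68303 in control arrays 1 to 4. The difference was -5.93e-05 ± 3.15e-05 (SE), or -1.28 within-group SD, and the diets overlapped through control 1. Tnni2, the fast inhibitory subunit, had 13.0209, 13.0223, 13.0221 and 13.0218 in collagen arrays, and 13.0215, 13.0225, 13.0224 and 13.0227 in control arrays. Its difference was -0.000549 ± 0.000387, with control 1 again among the collagen values. Tnnt3, the fast tropomyosin-binding subunit, had 12.6511, 12.6525, 12.6525 and 12.6518 in collagen arrays, and 12.6516, 12.6528, 12.6526 and 12.6530 in control arrays. It differed by -0.000526 ± 0.000444. In all 3 fast subunits collagen 1 was the lowest array and control 4 the highest. After quantile normalization none of the 3 had a difference left. With median centring the differences were -4.17e-06 for Tnnc2, -0.000494 for Tnni2 and -0.000471 for Tnnt3.

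The slow subunits were dim, with 1 of 3 lower and 2 higher, and a difference between the fast and the slow subunits was not tested. Tnnc1, the troponin C of slow and cardiac muscle, had 8.27028, 8.27017, 8.27020 and 8.27020 in collagen arrays, and 8.27020, 8.27019, 8.27021 and 8.27021 in control arrays. Its difference of 1e-05 ± 2.28e-05 turned to -1.28e-05 without collagen 1, so the sign rested on that array. Tnni1, the slow inhibitory subunit, had 8.080982, 8.080970, 8.080973 and 8.080967 in collagen arrays, and 8.080971, 8.080969, 8.080968 and 8.080967 in control arrays. It differed by 4.57e-06 ± 3.27e-06, or 0.954 within-group SD, and collagen 1 was its highest array. Tnnt1, the slow tropomyosin-binding subunit, had 8.21143, 8.21126, 8.21155 and 8.21135 in collagen arrays, and 8.21153, 8.21129, 8.21143 and 8.21140 in control arrays. With a difference of -1.38e-05 ± 7.64e-05, which turned to 4.13e-05 after median centring, its diets lay on top of each other. Collagen 1 was the lowest array for the fast troponins and the highest for the slow Tnnc1 and Tnni1, whose whole ranges were 0.000107 and 1.57e-05.

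Acta1, the actin of the skeletal thin filament whose promoter held the CArG box, had 13.989706, 13.989777, 13.989774 and 13.989758 in collagen arrays, and 13.989747, 13.989794, 13.989781 and 13.989787 in control arrays. The difference was -2.32e-05 ± 1.88e-05 as deposited and 3.2e-05 after median centring. Collagen 1 was the lowest array and control 1 the next lowest. Neb, the giant ruler protein nebulin that runs along the thin filament, averaged 11.2695 ± 0.00276 in collagen arrays and 11.2719 ± 0.00193 in control arrays (SD, n = 4 each). For Tmod4 the means were 10.1309 ± 0.00126 in collagen arrays and 10.1324 ± 0.00173 in control arrays.

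**Figure D3:**
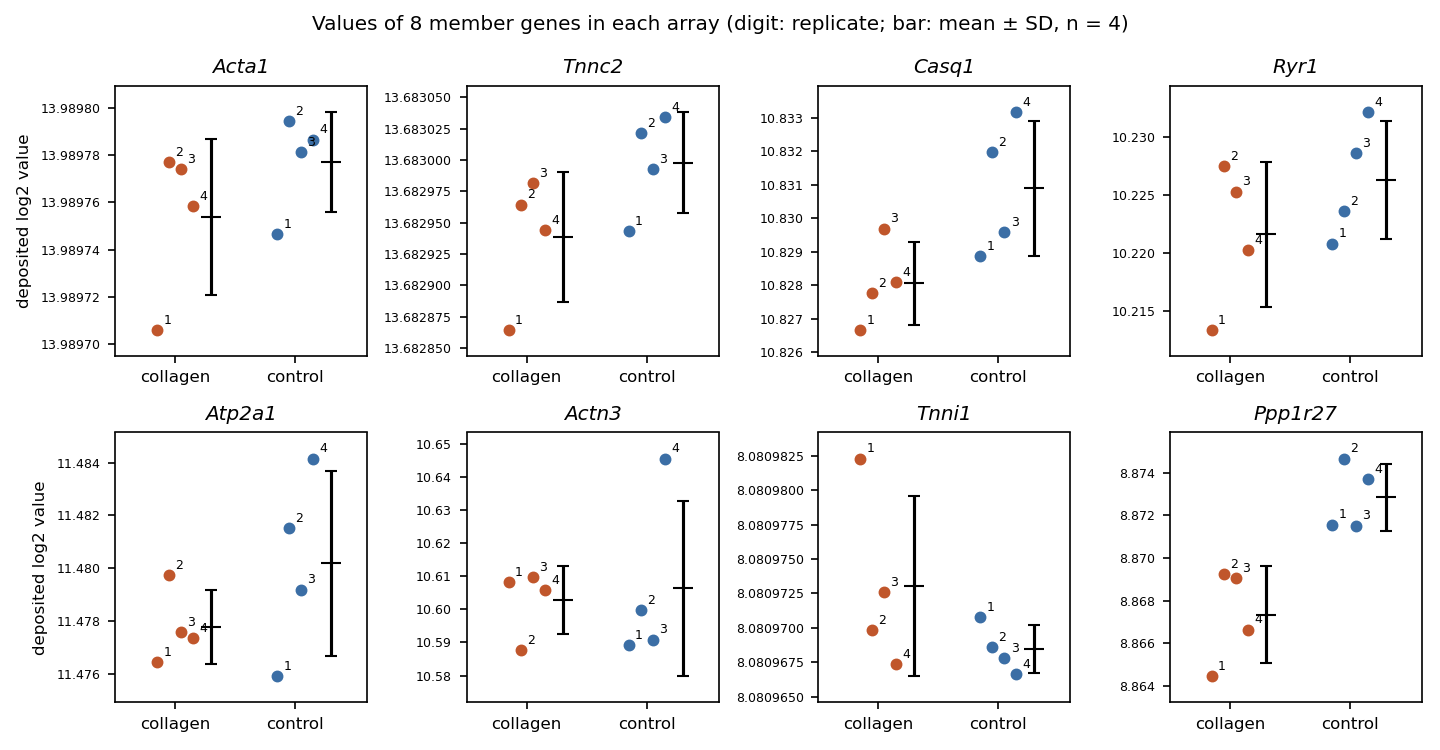
Deposited log2 values of 8 muscle genes in each array, with the replicate number beside each point, collagen left and control right, and the mean ± SD (n = 4) beside each group. The axes differ between panels and do not start at 0. Only in the panel of Ppp1r27 do the diets not overlap among these 8 genes, and collagen 1 is the highest point of Tnni1.

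All 6 thick filament and elastic genes had lower means with collagen, between -0.36 (Mybpc2) and -1.33 (Mylpf) within-group SD, and none passed the test. Without collagen 1 and control 4, 4 of the 6 lay lower. Mylpf, the regulatory light chain of fast myosin, had 13.20390, 13.20434, 13.20442 and 13.20417 in collagen arrays, and 13.20423, 13.20467, 13.20444 and 13.20469 in control arrays. The difference was -0.0003 ± 0.000154, with an unadjusted limma p of 0.095 and an exact permutation p of 0.114. Control 1 lay within the collagen range and the other control arrays just above it. Ttn, the titin spring that spans the sarcomere from Z disc to M band, had 12.7202, 12.7224, 12.7221 and 12.7216 in collagen arrays, and 12.7210, 12.7226, 12.7224 and 12.7225 in control arrays. It differed by -0.000552 ± 0.000599, and control 1 stood well below the other 3 control arrays. Myl1 averaged 12.80703 ± 0.000249 in collagen arrays and 12.80731 ± 0.000264 in control arrays (SD, n = 4 each). The M-band protein Myom1 differed by -0.00187 ± 0.00176. The 2 myosin-binding proteins C differed in pattern. Mybpc1, the slow-type form, followed Acta1 closely (Pearson r 0.977 over 8 arrays). Mybpc2, the fast-type form, followed the fast-fibre actinin Actn3 at 0.928, and at 0.665 without control 4, and Acta1 at 0.465. Following Acta1 was not particular to the slow-type form. The fast Tnnc2, Tnni2, Tnnt3, Mylpf and Myl1 did so at 0.932 (Mylpf) to 0.976 (Tnni2), and Atp2a1 and Pvalb at 0.724 and 0.643.

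The 7 measured Z-disc and costamere genes, which anchor thin filaments and tie the sarcomere to the membrane, all had lower means with collagen, and 5 did without collagen 1 and control 4. Actn2, the alpha-actinin that cross-links actin at the Z disc, had 10.338, 10.376, 10.361 and 10.356 in collagen arrays, and 10.367, 10.390, 10.377 and 10.370 in control arrays. With -0.0184 ± 0.00898 it had the largest difference among the members on the deposited scale, and its exact permutation p was 0.0857. Collagen 2 lay inside the control range and the other 3 collagen arrays below it. Ldb3, which holds the Z disc together and is also called ZASP, had 10.2065, 10.2108, 10.2106 and 10.2082 in collagen arrays, and 10.2095, 10.2135, 10.2116 and 10.2125 in control arrays. Its difference was -0.00272 ± 0.00129, or -1.43 within-group SD, and the overlap came through control 1. Actn3, the alpha-actinin of fast glycolytic fibres, had 10.608, 10.588, 10.610 and 10.606 in collagen arrays, and 10.589, 10.600, 10.591 and 10.646 in control arrays. The difference of -0.00342 ± 0.0137 turned to 0.00967 without control 4, whose value stood above all others. The remaining members of the group lay between -0.298 and -0.997 within-group SD. These are Myoz1, a calcineurin-binding protein (-0.861), myotilin, Myot (-0.676), the titin cap Tcap (-0.298) and the costamere protein Smpx (-0.997).

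The 8 genes of calcium release and uptake all had lower means with collagen, between -0.399 (Pvalb) and -1.69 (Casq1) within-group SD, and none passed the test. Of the 8, 6 lay lower without collagen 1 and control 4. Cacna1s, the voltage sensor, had 8.6233, 8.6271, 8.6261 and 8.6249 in collagen arrays, and 8.6245, 8.6275, 8.6265 and 8.6284 in control arrays. It differed by -0.00137 ± 0.00112, and collagen 1 and control 1 were its low arrays. Ryr1, the calcium release channel that the sensor opens, had 10.213, 10.227, 10.225 and 10.220 in collagen arrays, and 10.221, 10.224, 10.229 and 10.232 in control arrays. The difference was -0.0047 ± 0.00388, and without collagen 1 and control 4 together it was 1.04e-06. Those arrays held its lowest and its highest value. Casq1, calsequestrin, which holds calcium inside the store, had 10.8267, 10.8278, 10.8297 and 10.8281 in collagen arrays, and 10.8289, 10.8320, 10.8296 and 10.8332 in control arrays. Its difference was -0.00284 ± 0.00114, with an unadjusted limma p of 0.0441, an adjusted p of 0.999 and an exact permutation p of 0.0857. Collagen 3 was the one collagen array inside the control range.

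Free calcium in the fibre is lowered again by a pump and a buffer, and in the genes of both control 4 was the highest array and control 1 the lowest. Atp2a1, the pump SERCA1 of fast fibres, had 11.4765, 11.4797, 11.4776 and 11.4773 in collagen arrays, and 11.4759, 11.4815, 11.4792 and 11.4841 in control arrays. Its difference was -0.00241 ± 0.00181. Pvalb, parvalbumin, the calcium buffer of fast fibres, had 12.198, 12.200, 12.202 and 12.202 in collagen arrays, and 12.197, 12.203, 12.200 and 12.208 in control arrays. The difference was -0.00142 ± 0.00242, and 0.000558 without control 4. The remaining members build the junction between surface membrane and store. Triadin, Trdn, differed by -0.00318 ± 0.00241, the membrane tether Jph1 by -0.000738 ± 0.000693, and Jsrp1, which binds the sensor and calsequestrin, by -0.000937 ± 0.00065. Trdn (r 0.989) and Cacna1s (r 0.984) were among the genes closest to the other members, and Casq1 (r 0.872) and Pvalb (r 0.796) followed them less closely.

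All 6 energy supply genes had lower means with collagen, between -0.717 (Ckm) and -1.47 (Eno3) within-group SD, and none passed the test. Leaving out collagen 1 and control 4 left 5 of the 6 lower. Ckm, which regenerates ATP from phosphocreatine, had 13.2208, 13.2214, 13.2215 and 13.2213 in collagen arrays, and 13.2209, 13.2216, 13.2215 and 13.2221 in control arrays. It differed by -0.000288 ± 0.000273, and by 4.37e-05 without collagen 1 and control 4. Eno3, the muscle form of the glycolytic enzyme enolase, had 12.7296, 12.7302, 12.7301 and 12.7300 in collagen arrays, and 12.7300, 12.7306, 12.7303 and 12.7308 in control arrays. The difference was -0.000444 ± 0.000205, with an exact permutation p of 0.0857, and control 1 alone of the control arrays reached into the collagen range. Pygm, the glycogen phosphorylase of muscle, had 9.949, 9.962, 9.960 and 9.957 in collagen arrays, and 9.952, 9.968, 9.964 and 9.972 in control arrays. It differed by -0.00693 ± 0.00505 and followed the other members closely (r 0.982). Mb, the oxygen store myoglobin, had 12.2811, 12.2888, 12.2862 and 12.2819 in collagen arrays, and 12.2829, 12.2886, 12.2874 and 12.2883 in control arrays. Its difference was -0.00231 ± 0.00215, and its highest array was collagen 2. Cox6a2, the striated-muscle subunit of cytochrome c oxidase, differed by -0.00175 ± 0.00102, and Ampd1, the AMP deaminase of muscle, by -0.00285 ± 0.0023.

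Ppp1r27, a regulatory subunit of protein phosphatase 1, stood apart among the members in its diet difference. It had 8.864, 8.869, 8.869 and 8.867 in collagen arrays, and 8.872, 8.875, 8.872 and 8.874 in control arrays, so that the diets did not overlap. The difference was -0.00551 ± 0.00133, or -2.82 within-group SD. Its unadjusted limma p was 0.00505 and its adjusted p 0.999. The exact permutation p was 0.0286, the smallest that 70 assignments of 4 and 4 arrays allow, and the gene was picked out of 37 members after the values were seen. Its correlation with the other members was 0.816.

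Likeness to Actn3 was looked at after its high value in control 4 was seen. Among the members the Pearson correlation with Actn3 over 8 arrays was highest for Mybpc2 (0.928), Ampd1 (0.83) and Pvalb (0.81). Next came Myoz1 (0.629), Atp2a1 (0.582) and Casq1 (0.58), and it was 0.112 for Acta1. Without control 4 the values were 0.665 for Mybpc2, 0.382 for Ampd1 and 0.38 for Pvalb. Without it they were -0.213 for Myoz1, -0.26 for Atp2a1, -0.0829 for Casq1 and -0.341 for Acta1. Control 4 was thus the array that lifted these correlations.

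For 11 members the annotation gave more than 1 probe set, 22 besides those used above, and these measure the same genes with other sequences. Of the 22, 20 lay lower with collagen and 2 higher, where 46.7% of all probe sets lay lower. The 13 whose mean reached the median of all probe sets were all lower, and their correlation with the gene's brighter probe set ran between 0.796 and 0.998. The 2 higher ones were dim probe sets of Mb (mean 8.06) and Ttn (mean 7.17), with correlations of 0.029 and 0.105 with the brighter ones. A further probe set of Ttn, at a mean of 9.35, had a range of 0.0514 and differed by -0.0237 ± 0.0103, whereas the brightest had a range of 0.00242. The brighter probe sets of one gene carried the pattern over arrays in common but not its size on the deposited scale.

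Of 50 skeletal muscle genes outside the members 44 lay lower with collagen, with a median of -0.792 within-group SD, and without collagen 1 and control 4 these were 32 and -0.295. Of the 50, 30 had a correlation of 0.8 or more with the members over the 8 arrays. None passed an adjusted p of 0.05 in limma. The myosin heavy chains are the motors that define fibre types. Myh2, of fast oxidative fibres, had 10.635, 10.707, 10.690 and 10.667 in collagen arrays, and 10.694, 10.715, 10.712 and 10.708 in control arrays, with a correlation of 0.852 with the members. Myh1, another fast form, had 13.33104, 13.33172, 13.33164 and 13.33111 in collagen arrays, and 13.33144, 13.33174, 13.33166 and 13.33141 in control arrays, with a correlation of 0.684. Myh4, the form of the fastest fibres, had 10.19, 9.66, 10.24 and 10.27 in collagen arrays, and 10.06, 9.35, 9.73 and 10.39 in control arrays. Its range of 1.04 was far wider than that of any member, and its correlation with the members was -0.28. With Actn3 it correlated at 0.627 (rho 0.762), and at 0.549 without control 4. The other fast forms Myh1 and Myh2 correlated with Actn3 at -0.317 and -0.0718 over 8 arrays. Higher than Myh4 were Phkg1 (0.853), Phka1 (0.815), Ankrd23 (0.739) and Myl2 (0.73), so closeness to Actn3 was not particular to Myh4. Without control 4 these were 0.26, 0.123, -0.0117 and 0.683. Myh7, of slow fibres, was dim, with 8.0607, 8.0596, 8.0595 and 8.0596 in collagen arrays, and 8.0595, 8.0594, 8.0597 and 8.0597 in control arrays. Like Tnnc1 and Tnni1, it was highest in collagen 1. Heavy chain genes are near-identical over long stretches, and how well these probe sets separate them was not tested.

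The 4 other muscle genes with the smallest p were Itgb1bp2 (-0.00338 ± 0.000976, unadjusted limma p of 0.0119), the triad protein Sypl2 (-0.00123 ± 0.000469, 0.0365), Sln, the sarcolipin that inhibits the calcium pump (-0.0201 ± 0.00809, 0.0442), and the synapse kinase Musk (-6.99e-07 ± 2.95e-07, 0.0523). The adjusted p was 0.999 for each. Musk was dim, at a mean of 7.86, with a whole range of 1.37e-06 and a correlation of 0.109 with the members. The 10 genes outside the members whose values were most like theirs over the 8 arrays, among those at or above the median level, were Stac3 (r 0.99), Tmod1 (0.984), Rtn2 (0.984), Tmem38a (0.983), Rpl3l (0.981), Rragd (0.979), Ak1 (0.975), Hhatl (0.975), Macrod1 (0.974) and Mlip (0.973). Of these, Stac3 and Rpl3l are in the list of other skeletal muscle genes.

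**Figure D4:**
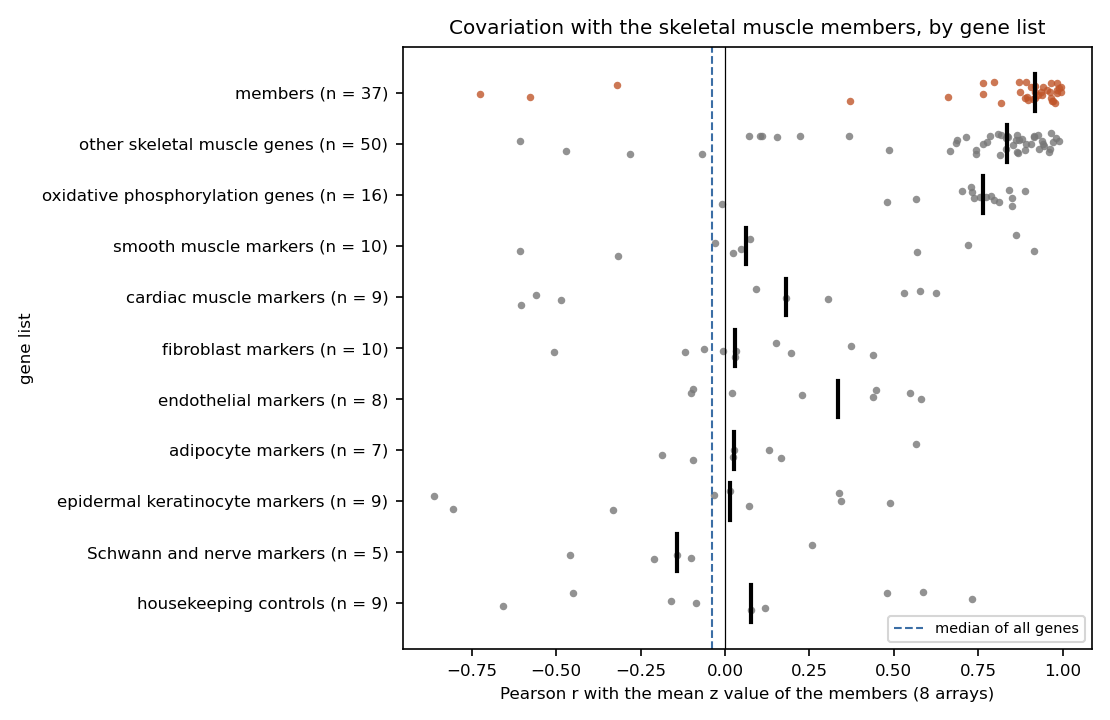
Pearson correlation over 8 arrays with the mean z value of the muscle members, 1 point per gene, for the members (each against all others) and the other lists, with black bars at the list medians and a dashed line at the median of all genes. The 2 skeletal muscle lists and the oxidative phosphorylation genes lie to the right, at medians of 0.918, 0.834 and 0.764.

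Genes of other cell types in the skin were set beside the members in the same way. The mean z value of 16 oxidative phosphorylation genes, which every cell uses and muscle uses heavily, correlated with that of the members at 0.933 (rho 0.929) over 8 arrays, and at 0.756 without collagen 1 and control 4. The mean of the other skeletal muscle genes did so at 0.981, and at 0.936 without those arrays. For smooth muscle markers the value was 0.478, for endothelial markers 0.366, for adipocyte markers 0.111, for fibroblast markers 0.0684, for epidermal keratinocyte markers -0.149 and for Schwann cell and nerve markers -0.164. Without collagen 1 and control 4 these values lay between -0.384 (adipocyte) and 0.491 (smooth muscle). Single smooth muscle markers ran between -0.607 (Mylk) and 0.915 (Synpo2), with a median of 0.0613. Of the cardiac markers 8 of 9 lay below the median of all probe sets, with levels between 6.99 and 8.56. Lower means with collagen were not particular to muscle. All 10 fibroblast markers (median -0.801 within-group SD) and all 8 endothelial markers (-0.93) lay lower too, with collagen 2 as the lowest array of both lists. So did 15 of the 16 oxidative phosphorylation genes (-0.631) and 4 of the 5 Schwann cell and nerve markers (-0.541). Without collagen 1 and control 4, 9 fibroblast, 7 endothelial, 4 Schwann cell and nerve and 7 oxidative phosphorylation genes lay lower. Their medians were then -0.996, -0.852, -0.86 and 0.163 within-group SD, in that order, where that of the members was -0.221. Of the keratinocyte markers, whose levels of 10.76 to 14.39 bear out the label of skin, 2 of 9 lay lower. Mean z values of the fibroblast markers were -0.62, -1.49, -0.10 and 0.75 in collagen arrays, and 0.34, 0.55, 0.73 and -0.17 in control arrays.

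**Figure D5:**
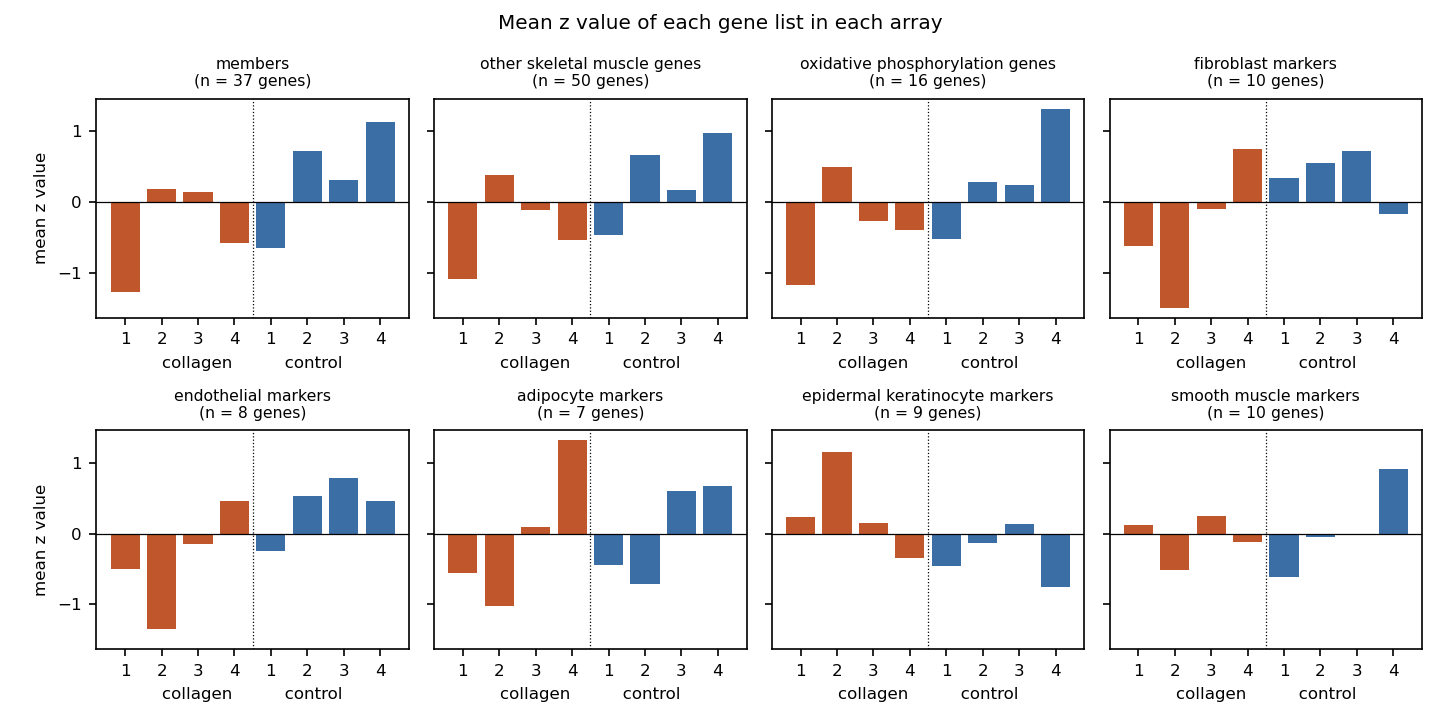
Mean z value over the genes of each list in each array, collagen (orange) left and control (blue) right, with the replicate number under each bar. The other skeletal muscle and oxidative phosphorylation panels repeat the shape of the member panel, lowest in collagen 1 and highest in control 4, and the fibroblast and endothelial panels are lowest in collagen 2.

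A measure of RNA quality moved with the muscle genes. The array carries control probe sets at the 3′ end and the 5′ end of Gapdh, a glycolytic enzyme that muscle also expresses strongly, and a larger difference between them goes with more degraded RNA or shorter labelled copies. The difference was 0.2906, 0.2900, 0.2901 and 0.2901 in collagen arrays, and 0.2904, 0.2898, 0.2898 and 0.2898 in control arrays. It was largest in collagen 1 and control 1, which were also the lowest arrays of their diets for the members, and over the 8 arrays its correlation with the member mean z value was -0.936 (rho -0.976), and -0.867 without collagen 1 and control 4. The 3′ and 5′ probe sets on their own followed the members too, at 0.942 and 0.94. The part of RNA quality, or of Gapdh in muscle, in the muscle pattern was not tested.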

How the data were processed

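Biotin-labelled total RNA of dorsal skin was hybridised to 1-colour arrays, per the labels' protocols, with 4 arrays for each diet. The authors deposited log2 values in 1 table. Their range of 6.56 to 14.46 shows the log2 unit. R 2.7.2 is named per the submitters' processing notes, while the sources used here give no summary or normalization method. Without detection calls the signal over background is unknown, and the number of arrays limits the precision.

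After 64 control probe sets were left out, 45037 were tested, of which 34945 had 1 gene symbol. Differences (collagen minus control) were fitted over all genes in R 4.3.3 by lmFit and eBayes of limma 3.58.1, two-sided and without a covariate, with Benjamini-Hochberg adjustment. The values were multiplied by a constant that changes no test. Single genes were also compared by an exact two-sided permutation test over 70 assignments. Summaries and plots used Python 3.11.15, pandas 2.3.3, numpy 2.4.6, scipy 1.17.1 and matplotlib 3.10.9. The fit was tested on simulated data with independent genes. The shifts planted there were larger, in within-group SD, than any member difference, so differences of the members' size were not covered. The labels call the samples biological replicates.

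The members and gene lists were chosen with earlier results of these data known. Values in every array are given for the fast and slow troponins, 10 central members, the 6 members with the smallest p, those higher with collagen and the 4 with the widest range. Normalization, centring, variance model, array weights, level filter, choice of probe set, a Gapdh covariate, a replicate block and each array left out were tried as alternatives. All 37 measured symbols matched the RefSeq gene table by Entrez identifier.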

Additional observations from a re-analysis of the deposited data

Results flagged for a closer look

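Among the control arrays, control 1 lay apart from the other 3 for 2 members. For Ttn the gap between control 1 and the nearest control array was 0.879 of the range of the 4 control arrays, and for Myom1 it was 0.86, both above the 95% critical value of Dixon's test. Control 1 was the lowest of its group in both genes. Of 74 groups of 4 arrays examined over the members 2.7% passed this limit, against 5.36% over all genes, and chance gives about 5%.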

How the results depend on the processing

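With 4 arrays a diet and a deposited scale of unknown spread, small differences were not detectable, and signal over background is unknown. In limma, 0 members passed an adjusted p of 0.05 under any alternative run. The count of all genes past it was 0 as deposited and 1 without collagen 1 and control 4 together, a choice made after the data were seen. Members lower with collagen numbered 27 (quantile normalization) to 35, with 32 to 35 when 1 array was left out. Their median difference ran between -1.53 (without control 1) and -0.221 (without collagen 1 and control 4) within-group SD, and was -0.553 without control 4 and -0.603 without collagen 1. The median correlation of a member with the others ran between 0.873 and 0.945, and the difference of the member mean z value between -1.09 and -0.29. Members at an unadjusted p under 0.05 numbered 2 as deposited (3.49% of all genes), 12 without control 1 (6.12%) and 5 after median centring (0.396%). They numbered 1 without each of collagen 1 (3.16%), collagen 4 (8.53%), control 2 (2.45%) and control 4 (4%). The number was also 1 after quantile normalization (2.84%), with an equal-variance model without the eBayes step (3.71%) and without collagen 1 and control 4 together (3.38%).

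Whether the replicate numbers pair the arrays could not be judged. Same-numbered arrays had correlations of 0.362, 0.0486, 0.215 and 0.0111 between their deviations from the diet means. No values for differently numbered arrays were set beside them, so they have no reference. With a replicate block 35 members lay lower, with a median of -1.4 within-group SD, and 11 had an unadjusted p under 0.05, as did 6.1% of all genes.

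Signs turned for some members. Only members whose values are given in every array are listed here, so turns among the other members are not shown. With 1 array left out, the difference ran between -1.28e-05 (without collagen 1) and 2.29e-05 for Tnnc1, -6.52e-05 and 3.04e-05 for Tnnt1 (above 0 without collagen 2, collagen 4 or control 1), -0.00912 and 0.00967 for Actn3 (above 0 without collagen 2 or control 4) and -0.0032 and 0.000558 (without control 4) for Pvalb. Median centring gave 4.13e-05 for Tnnt1 and 3.2e-05 for Acta1, and array weights 5.99e-05 for Tnnt1 and 0.000163 for Actn3. The dimmest probe set gave 8.6e-07 for Mb and 1.62e-06 for Ttn. The Gapdh covariate gave -6.74e-06 for Tnnc1, 1.7e-05 for Ckm, 0.000823 for Pvalb, 0.000146 for Ttn and 0.000916 for Actn3. Without collagen 1 and control 4 the values were -1.08e-05 for Tnnc1, 4.37e-05 for Ckm, 1.04e-06 for Ryr1, 0.00132 for Pvalb, 1.79e-05 for Ttn and 0.00787 for Actn3. The cause was not tested. Members with no difference left after quantile normalization have no value under it.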
